A study of Mus musculus with 12 samples.

Results

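The conjugating enzymes of phase II metabolism were examined in mouse kidney as 3 classes, the UDP-glucuronosyltransferases (Ugt genes), the soluble glutathione transferases (Gst genes) and the cytosolic sulfotransferases (Sult genes). Members were all gene symbols that begin with Ugt and a digit, with Gst, a letter and a digit, or with Sult and a digit, so the choice used no measured value. The rule found 61 of 23238 symbols, of which 21 were Ugt, 21 Gst and 19 Sult genes. Kidneys of C57BL/6 mice were profiled in 3 groups of 4 libraries, named Control, CKD (chronic kidney disease) and CKD TRF (chronic kidney disease with time restricted feeding). All 3 groups are of the same strain, and no genetic change is named for any of them. The way the disease was produced, the hours of feeding, the age and sex of the mice and the hour of sampling are not given in the sources used here, nor is it said whether each library is a separate animal. P-values therefore measure only the spread between these libraries, which may be technical.

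Phase II enzymes join a polar group to drugs, hormones and waste products so that they dissolve in water and can be pumped into urine or bile. Glucuronosyltransferases sit in the endoplasmic reticulum and take the sugar from UDP-glucuronate or a related nucleotide sugar. Glutathione transferases are mostly soluble and add the tripeptide glutathione to reactive compounds, while sulfotransferases take sulfate from the donor PAPS. In the kidney much of this work is done by the proximal tubule, and sulfate and glucuronide conjugates are among the solutes that build up when kidney function is lost.

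The deposited values were log2(scaled reads + 1) of QuantSeq libraries, which read short tags near the 3' end of polyadenylated RNA. Levels below are scaled reads, and differences are on the log2(scaled reads + 1) scale, which understates the change of genes with low levels. Libraries held 10989996 to 17210215 reads, with 10989996 to 12810628 for Control, 14512395 to 16857683 for CKD and 14145852 to 17210215 for CKD TRF. A count of 3 reads was worth 0.168 to 0.306 scaled reads. The 12 libraries did not have equal sums of scaled reads: these were 1076773 to 1180101 for Control, 941189 to 978419 for CKD and 987841 to 1025834 for CKD TRF. Proximal tubule markers marked the tissue as labelled, with a summed level of 55995 to 74005 scaled reads for Control, 31108 to 38014 for CKD and 35605 to 43281 for CKD TRF.

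In CKD kidneys the conjugating enzymes were mostly lower than in Control, above all the Ugt genes. Counted among these by symbol were Ugt3a1 and Ugt3a2, which use sugar donors other than UDP-glucuronate, and Ugt8a, which makes galactosylceramide. Of 33 members that passed the filter on low values, 16 fell and 2 rose (limma, adjusted p below 0.05 over all 13943 genes tested). Among all tested genes 45.4% were called in this comparison, 23.6% higher and 21.8% lower, so the share of members called, 54.5%, was not far from the background while the split was 16 lower to 2 higher. The median difference of the 33 members was -0.30 on the log2 scale against 0.02 over all genes. All 9 tested Ugt genes lay below 0 (Ugt2b37 at 0.11 with quantile normalization), and 7 of them fell, with a median difference of -0.66. Of 19 tested Gst genes 6 fell and 1 rose, with a median of -0.09. Of 5 tested Sult genes 3 fell and 1 rose, with a median of -0.46. A lower level in whole kidney can reflect fewer cells of a type or less RNA per cell, and these cannot be told apart here.

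In CKD against Control the order of the classes was the same under the 3 other scalings tried, but the sign of the smaller differences was not. When every library was set to an equal sum of scaled reads, the median of all genes moved up by 0.21 and the members split into 9 lower and 3 higher. Of all 13943 genes this scaling called 1547 lower and 4989 higher. The median of the Ugt genes was then -0.51, that of the Sult genes -0.23 and that of the Gst genes 0.11. Relative to the median of all genes under the same scaling, these were -0.74, -0.46 and -0.12, beside -0.69, -0.48 and -0.12 with the deposited scaling. Centring the libraries on their medians moved the median of all genes by -0.10 and gave 18 members lower and 2 higher, beside 3918 lower and 2650 higher of all genes. With quantile normalization the medians relative to all genes were -0.80 for Ugt, -0.26 for Sult and -0.08 for Gst genes, and over all members -0.16, beside -0.32 with the deposited scaling. In CKD TRF against Control the quantile medians put Sult genes, at -0.60, below Ugt genes, at -0.55. Proximal tubule markers moved with the enzymes: 12 of 16 fell in CKD and none rose, with a median difference of -0.82. The part of proximal tubule RNA in the enzymes' differences was not tested.

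Summed over a class, the same order appeared in the levels themselves. The Ugt sum was 3115 ± 477 scaled reads for Control, 1772 ± 157 for CKD and 1829 ± 188 for CKD TRF (SD, n = 4 each). Every Control library, 2673 to 3764, lay above every diseased library, 1630 to 2097. The Sult sum was 1162 ± 150 for Control, 833 ± 58.5 for CKD and 883 ± 70.3 for CKD TRF (SD, n = 4 each), and Control libraries, 1032 to 1364, again lay above all others, 780.2 to 949.2. The Gst sum was 2037 ± 159 for Control, 1723 ± 97.7 for CKD and 1854 ± 134 for CKD TRF (SD, n = 4 each), with CKD TRF overlapping Control. As ratios of means, CKD to Control was 0.569 for Ugt, 0.717 for Sult and 0.846 for Gst genes. With equal sums the ratios were 0.667, 0.840 and 0.993, and the ratio of CKD TRF to Control for Gst genes moved from 0.910 to 1.01, so its side of 1 depended on the scaling.

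**Figure D1:**
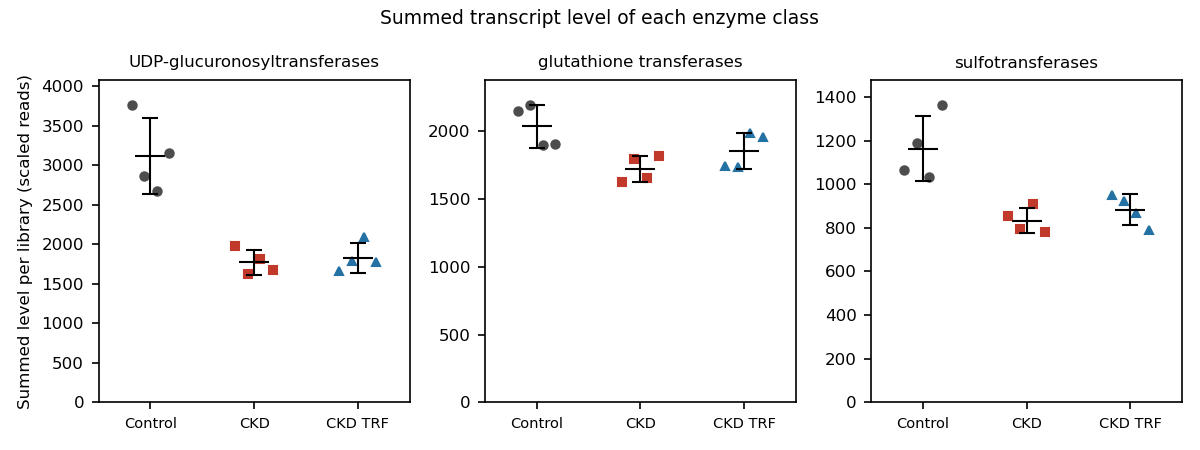
Summed level in scaled reads (y axis, from 0) of each class in each library, by group on the x axis, with the group mean and SD over 4 libraries in black. Control libraries lie above all diseased libraries for Ugt (2673 to 3764 against 1630 to 2097) and Sult genes, while the Gst ranges lie closer, and the Gst ratio of CKD to Control is 0.993 when libraries are set to equal sums.

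A few genes carried most reads of each class. Sult1d1 gave 91.5% ± 1.51 of the Sult reads in Control (SD, n = 4). Ugt2b38 gave 27.3% ± 4.75, Ugt1a6b 24.7% ± 3.96 and Ugt3a2 22.4% ± 4.03 of the Ugt reads (SD, n = 4). The Gst class was spread more evenly, with Gstm1 at 17.8% ± 1.35 and Gstz1 at 16.7% ± 0.534 of its reads (SD, n = 4). These are shares of tag reads, with no division by transcript length. The plot of changes by member shows how far each of the 33 tested members moved.

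**Figure D2:**
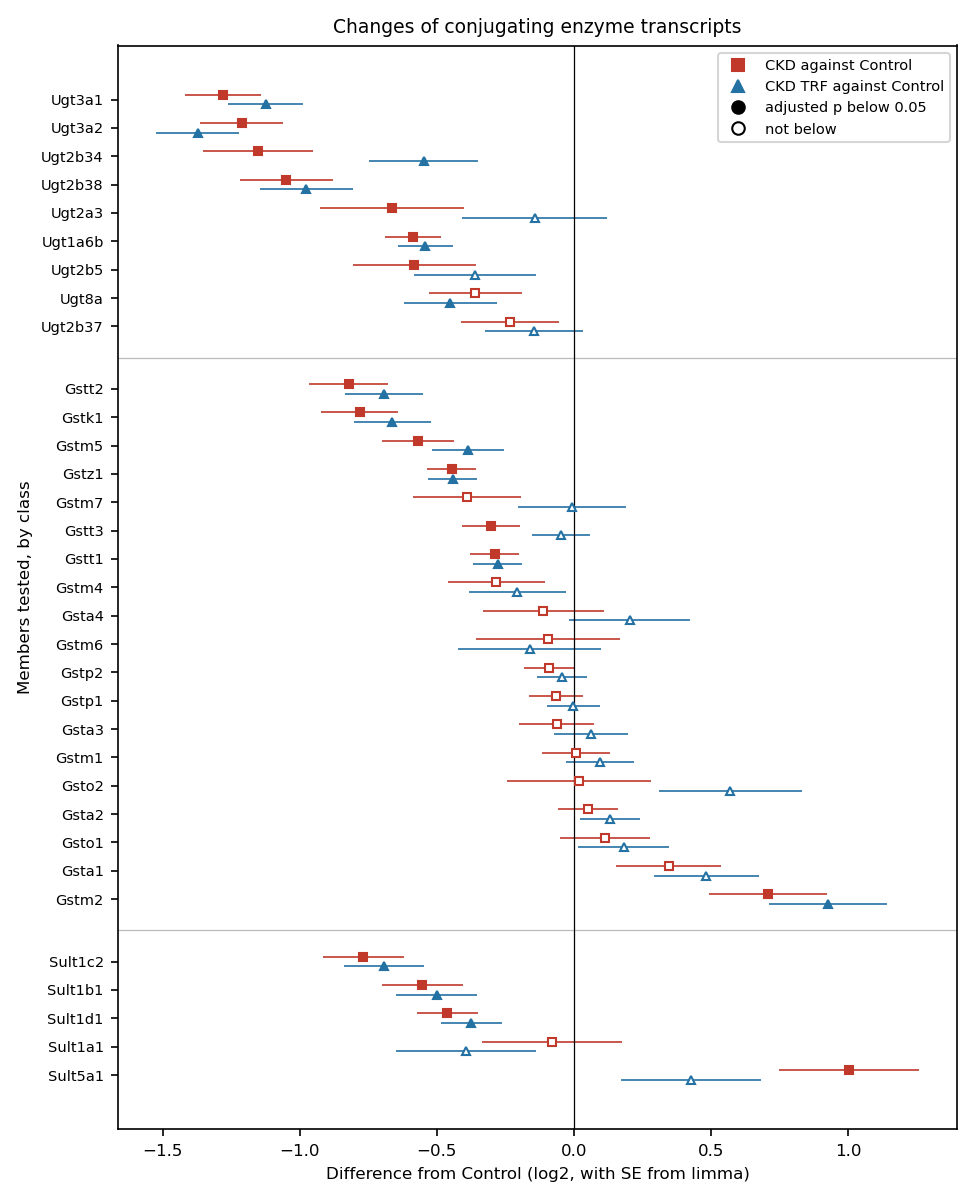
Difference from Control on the log2(scaled reads + 1) scale with its SE from limma (x axis) for the 33 tested members (y axis, grouped as Ugt, Gst and Sult genes), CKD as red squares and CKD TRF as blue triangles. Filled symbols have an adjusted p below 0.05; all 9 Ugt genes lie left of 0 in both comparisons (Ugt2b37 right of 0 with quantile normalization), and Gstm2 and Sult5a1 lie farthest right.

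The 2 members of the UGT3 family, enzymes that use sugar donors other than UDP-glucuronate, fell by the largest amounts of any members in CKD. Ugt3a1 (chr15:9276888-9315032, plus strand, GRCm38) measured 217, 152, 129 and 156 scaled reads in Control 1 to 4, 65.9, 54.3, 77.8 and 66.2 in CKD 1 to 4, and 64.8, 69.9, 79.2 and 79.6 in CKD TRF 1 to 4. All 4 Control libraries lay above all 8 diseased libraries. Ugt3a1 fell by 1.28 ± 0.14 (SE) in CKD (limma, adjusted p = 3.96e-07) and by 1.12 ± 0.14 in CKD TRF (adjusted p = 3.19e-06). Ugt3a2, its neighbour at chr15:9335550-9370955, measured 1049, 521, 591 and 673 in Control, 331, 275, 314 and 263 in CKD, and 244, 254, 276 and 280.3 in CKD TRF. Control 1 was the highest library for both genes, and again no diseased library reached the Control range. Ugt3a2 fell by 1.21 ± 0.15 (SE) in CKD (limma, adjusted p = 2.73e-06) and by 1.37 ± 0.15 in CKD TRF (adjusted p = 1.03e-06). Both calls held for both genes under all 23 alternative fits.

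UGT2B enzymes glucuronidate steroids, bile acids and many drugs, and their genes lie in a cluster on chromosome 5. Ugt2b38 (chr5:87409942-87424203, minus strand) measured 1149, 884, 552 and 855 scaled reads in Control, 484, 381, 399.9 and 353 in CKD, and 335, 416, 524 and 435 in CKD TRF. The lowest Control library, Control 3, stayed above the highest diseased library, CKD TRF 3. Ugt2b38 fell by 1.05 ± 0.17 (SE) in CKD (limma, adjusted p = 4.86e-05) and by 0.98 ± 0.17 in CKD TRF (adjusted p = 0.000151). Ugt2b37 (chr5:87240493-87254804, minus strand), whose protein is 91.3% identical, averaged 439 ± 73.8 for Control, 371 ± 50.8 for CKD and 411 ± 153 for CKD TRF (SD, n = 4 each). Its difference did not pass the threshold in CKD, at -0.23 ± 0.18 (SE; limma, adjusted p = 0.302), or in CKD TRF, at -0.15 ± 0.18 (adjusted p = 0.554).

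Ugt2b34 (chr5:86889767-86906937, minus strand) was the member with the largest positive difference between CKD TRF and CKD. It measured 37.9, 34.3, 32.1 and 43.3 scaled reads in Control, 11.9, 12.05, 21.5 and 20.7 in CKD, and 22.6, 24.3, 18.9 and 35.8 in CKD TRF. CKD lay wholly below Control, while CKD TRF overlapped both other groups. Ugt2b34 fell by 1.15 ± 0.20 (SE) in CKD (limma, adjusted p = 9.82e-05) and by 0.55 ± 0.20 in CKD TRF (adjusted p = 0.0348). The second of these calls was lost in 8 of 23 alternatives, among them leaving out Control 1 or 4 or CKD TRF 1, 2 or 3 (adjusted p = 0.0646 to 0.125). CKD TRF exceeded CKD by 0.60 ± 0.20, with an unadjusted p of 0.00648 and an adjusted p of 0.705 by limma. Ugt2b5, a cluster member of low level, is 96.4% identical to Ugt2b38 in protein and 86.9% identical over 290 bases of the transcript end. Whether reads of Ugt2b38 were counted as Ugt2b5 was not tested. The low-level cluster members Ugt2b5 and Ugt2a3 averaged 7.92 and 3.05 in Control and 4.85 and 1.55 in CKD. They fell by 0.58 ± 0.22 and 0.66 ± 0.26 (SE; limma, adjusted p = 0.039 and 0.0456), and lost the call in 9 of 22 and 11 of 23 alternatives. Single libraries that ended it when left out were Control 1, 2 and 4 and CKD 2 and 3 for Ugt2b5 (adjusted p = 0.0572 to 0.119), and Control 1, 2 and 4 and CKD 1, 2 and 4 for Ugt2a3 (adjusted p = 0.0618 to 0.146).

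Ugt1a6b carried nearly all reads of the Ugt1a locus, which makes several enzymes from alternative first exons and shared last exons. Of the 8 Ugt1a entries 7 were identical over their last 293 to 300 bases, so a 3' tag cannot tell these enzymes apart, and the value under Ugt1a6b may include the others. The end of Ugt1a7c matched 2 entries over 300 bases and overlapped the other 5 by 13 bases. The locus lies on chromosome 1, where the annotation places Ugt1a6b at chr1:88103252-88219003 on the plus strand. Ugt1a6b measured 822, 669, 818 and 731 scaled reads in Control, 496, 446, 532 and 546 in CKD, and 527, 515, 474 and 566 in CKD TRF, and none of the 7 other entries exceeded 0.972 in any library. Control lay above both diseased groups without overlap. Ugt1a6b fell by 0.59 ± 0.10 (SE) in CKD (limma, adjusted p = 9.07e-05) and by 0.54 ± 0.10 in CKD TRF (adjusted p = 0.000289). With quantile normalization the difference was -0.21 in both CKD (adjusted p = 0.0736) and CKD TRF (adjusted p = 0.083), which ended both calls.

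Ugt8a (chr3:125865271-125938619, minus strand) makes galactosylceramide, a lipid of myelin and of kidney epithelium, and is no drug-conjugating enzyme. It measured 108, 103, 161 and 169.8 scaled reads in Control, 130.5, 97.6, 113 and 77.1 in CKD, and 122, 91.0, 86.5 and 89.1 in CKD TRF. Control libraries fell into a lower and a higher pair, and the groups overlapped. The difference was -0.36 ± 0.17 (SE) in CKD (limma, adjusted p = 0.0876), and Ugt8a fell by 0.45 ± 0.17 in CKD TRF (adjusted p = 0.0402). The call in CKD TRF was lost in 9 of 23 alternatives, among them leaving out Control 3 or 4 or CKD TRF 2, 3 or 4 (adjusted p = 0.086 to 0.145). In CKD a call was gained by leaving out Control 1, Control 2 or CKD 1 (adjusted p = 0.0285 to 0.0453).

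The promoters of Ugt2b37 and Ugt2b38 are shown because they are a pair of like sequence of which Ugt2b38 was called and Ugt2b37 was not, and that of Gstm5 because it holds a match to a searched motif. Each runs 5' to 3' on the gene's strand from 250 bases before to 50 after the start site of a RefSeq transcript (GRCm38.p6). The windows are chr5:87254739-87255038 (minus strand) for Ugt2b37, chr5:87424154-87424453 (minus strand) for Ugt2b38 and chr3:107895604-107895903 (plus strand) for Gstm5. Capitals mark, in the first 2, bases that differ or are unpaired in their alignment, and in Gstm5 the motif.
Ugt2b37: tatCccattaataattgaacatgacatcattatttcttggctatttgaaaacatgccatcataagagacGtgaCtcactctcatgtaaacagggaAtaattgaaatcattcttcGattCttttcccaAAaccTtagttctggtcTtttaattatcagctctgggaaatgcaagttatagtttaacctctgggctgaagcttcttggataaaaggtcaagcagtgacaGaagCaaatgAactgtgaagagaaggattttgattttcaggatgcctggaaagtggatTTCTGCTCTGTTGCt
Ugt2b38: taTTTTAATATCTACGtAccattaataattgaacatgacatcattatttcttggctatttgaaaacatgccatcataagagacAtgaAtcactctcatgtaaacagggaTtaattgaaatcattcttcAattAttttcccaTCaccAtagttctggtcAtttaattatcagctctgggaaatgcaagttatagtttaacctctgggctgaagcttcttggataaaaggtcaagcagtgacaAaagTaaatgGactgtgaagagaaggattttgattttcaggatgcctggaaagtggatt
Gstm5: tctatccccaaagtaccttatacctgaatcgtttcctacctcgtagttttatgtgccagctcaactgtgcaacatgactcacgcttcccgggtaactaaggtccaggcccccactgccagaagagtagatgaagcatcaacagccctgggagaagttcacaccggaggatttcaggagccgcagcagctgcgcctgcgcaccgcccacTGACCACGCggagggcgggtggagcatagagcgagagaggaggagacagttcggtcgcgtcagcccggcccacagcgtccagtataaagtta
Ugt2b37 and Ugt2b38 shared 273 of 300 bases in this alignment (86.9% of its length, gaps included), and the unpaired bases at the ends are where the windows are shifted against each other. The motif searched was the antioxidant response element core TGACNNNGC, on both strands. It stood in 4071 of 32851 RefSeq mouse promoters of this length (12.4%) and in 3 of the 64 such promoters of 53 members. These were promoters of Gsta3, Gstm5 and Gstm7, with the motif beginning at -121, -42 and -129 bases from the start site. The motif was chosen after the values were seen, and a match describes letters only.

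Among the glutathione transferases, the theta, kappa and zeta classes held 5 of the 6 falls, and the alpha, omega and pi classes held no call. Gstt2, a theta enzyme that acts on halogenated compounds (chr10:75831114-75837424, minus strand), measured 236, 293, 167 and 167 scaled reads in Control, 122, 118, 103 and 130.0 in CKD, and 143, 121, 137 and 117 in CKD TRF. All Control libraries lay above the diseased ones. Gstt2 fell by 0.82 ± 0.14 (SE) in CKD (limma, adjusted p = 0.000112) and by 0.69 ± 0.14 in CKD TRF (adjusted p = 0.000809).

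Gstk1 (chr6:42245935-42250447, plus strand), the kappa enzyme of mitochondria and peroxisomes, measured 69.6, 63.7, 54.1 and 54.3 in Control, 30.8, 28.9, 36.7 and 43.4 in CKD, and 31.1, 37.8, 45.3 and 37.5 in CKD TRF. The groups of diseased libraries overlapped each other and not Control. Gstk1 fell by 0.78 ± 0.14 (SE) in CKD (limma, adjusted p = 0.00014) and by 0.66 ± 0.14 in CKD TRF (adjusted p = 0.000918). Gstz1 (chr12:87147165-87164723, plus strand), which also serves as maleylacetoacetate isomerase in tyrosine breakdown, measured 362, 355, 309.8 and 330.1 in Control, 265, 256, 237 and 236 in CKD, and 234, 248, 244 and 270.3 in CKD TRF. Again no diseased library reached Control. Gstz1 fell by 0.45 ± 0.09 (SE) in CKD (limma, adjusted p = 0.000393) and by 0.44 ± 0.09 in CKD TRF (adjusted p = 0.000585). With quantile normalization its differences were -0.13 and -0.19 (adjusted p = 0.202 and 0.0777), and with equal sums -0.22 in CKD (adjusted p = 0.0534).

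The other theta genes sit beside Gstt2 on chromosome 10 and had smaller differences. Gstt1 (chr10:75783813-75798584) measured 149, 156, 163 and 161 in Control, 119, 129, 138 and 129 in CKD, and 132, 117, 136 and 134 in CKD TRF. It was below Control in all 8 diseased libraries, and fell by 0.29 ± 0.09 (SE) in CKD (limma, adjusted p = 0.0112) and by 0.28 ± 0.09 in CKD TRF (adjusted p = 0.0173). Gstt3 (chr10:75774115-75781414) measured 116, 109, 89.9 and 102 in Control, 79.5, 90.5, 80.2 and 86.4 in CKD, and 109, 84.1, 103 and 107 in CKD TRF. Its CKD and Control ranges overlapped between 89.9 and 90.5, and CKD TRF overlapped both. Gstt3 fell by 0.30 ± 0.11 (SE) in CKD (limma, adjusted p = 0.0248), and the difference was -0.05 ± 0.11 in CKD TRF (adjusted p = 0.754). With equal sums the differences in CKD were -0.06 for Gstt1 and -0.08 for Gstt3 (adjusted p = 0.595 and 0.58). Leaving out Control 1 or 2 or CKD 1 or 3 also ended the call of Gstt3 (adjusted p = 0.0509 to 0.0784), and leaving out CKD TRF 2 that of Gstt1 in CKD TRF (adjusted p = 0.0679).

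Mu class enzymes, which conjugate epoxides and quinones, lie together on chromosome 3 and went different ways. Gstm5 (chr3:107895821-107898686, plus strand) measured 231, 246, 172 and 209 scaled reads in Control, 139, 142, 154 and 138 in CKD, and 123, 180.0, 202 and 156 in CKD TRF. CKD lay below Control, and CKD TRF overlapped both. Gstm5 fell by 0.57 ± 0.13 (SE) in CKD (limma, adjusted p = 0.00146) and by 0.39 ± 0.13 in CKD TRF (adjusted p = 0.0248), a call that 8 of 23 alternatives lost, among them leaving out Control 1 or 2 or CKD TRF 1 or 4 (adjusted p = 0.0595 to 0.117). Quantile normalization ended the call in CKD, at -0.33 (adjusted p = 0.0538). Gstm1, the member of this class with the most reads, averaged 362 ± 28.8 for Control, 366 ± 51.8 for CKD and 390 ± 72.2 for CKD TRF (SD, n = 4 each), a difference of 0.01 ± 0.12 in CKD (SE; limma, adjusted p = 0.97). With quantile normalization Gstm1 was called higher, by 0.32 in CKD and by 0.37 in CKD TRF (limma, adjusted p = 0.0467 and 0.0283). Gstm4 and Gstm7 averaged 10.4 and 12.8 in Control and 8.27 and 9.35 in CKD, and neither passed the threshold (limma, adjusted p = 0.203 and 0.11). Gstm4 did pass in CKD with quantile normalization, at -0.49 (limma, adjusted p = 0.0278). Gstm7 did in CKD with quantile normalization, with median centring and without Control 2 (limma, adjusted p = 0.0239, 0.0414 and 0.0176).

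Gstm2 (chr3:107981702-107986453, minus strand) rose. It measured 34.2, 43.8, 47.6 and 38.4 scaled reads in Control, 48.2, 91.0, 56.0 and 81.9 in CKD, and 89.9, 44.1, 97.0 and 96.5 in CKD TRF. CKD lay above Control by a narrow margin, and CKD TRF 2 lay inside the Control range while the other 3 lay far above it. Gstm2 rose by 0.71 ± 0.22 (SE) in CKD (limma, adjusted p = 0.0113) and by 0.92 ± 0.22 in CKD TRF (adjusted p = 0.00215). The high libraries were those with fat RNA. The summed level of 6 fat markers (Adipoq, Cfd, Plin1, Cidec, Retn and Lep) was 0 to 1.29 in Control, 11.7, 169, 4.53 and 386 in CKD 1 to 4, and 81.4, 0.398, 66.5 and 131 in CKD TRF 1 to 4. Without the 5 libraries above 20, the difference was 0.35 in CKD and 0.11 in CKD TRF, with 2 CKD libraries and 1 CKD TRF library left. Those 5 libraries also had the highest Gstm2 levels, so leaving them out had to lower the difference. The limit of 20 was chosen after the data were seen, and the part of fat RNA in the rise was not tested. Leaving out CKD 2 alone gave 0.56 (adjusted p = 0.0534).

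**Figure D3:**
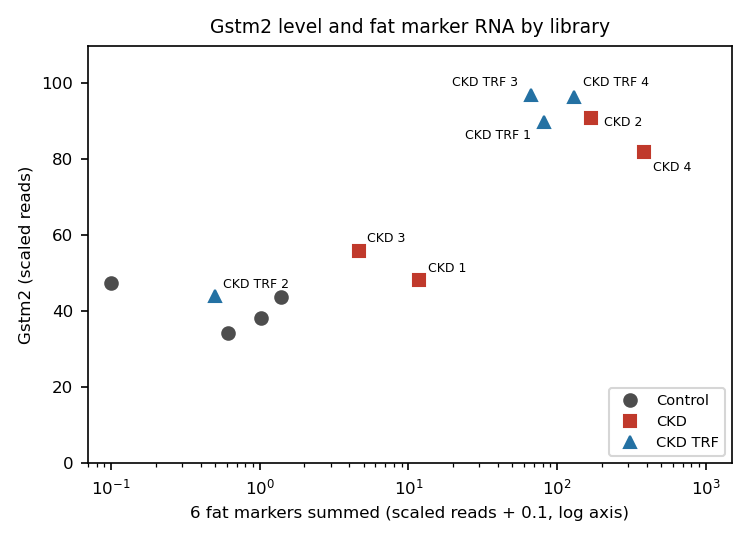
Gstm2 level in scaled reads (y axis, from 0) against the summed level of 6 fat markers plus 0.1 (x axis, log scale) in each of the 12 libraries, by group. The 5 libraries with more than 20 scaled reads of fat markers have Gstm2 between 81.9 and 97.0, and the other 7 between 34.2 and 56.0.

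No member of the alpha, omega and pi classes passed the threshold in any comparison. Gsta2, an alpha enzyme that reduces lipid peroxides, averaged 148 ± 10.98 for Control, 154 ± 12.9 for CKD and 164 ± 25.8 for CKD TRF (SD, n = 4 each). With quantile normalization Gsta2 did pass in CKD TRF, at 0.29 (limma, adjusted p = 0.0406). Gsta3 averaged 88.2, 83.7 and 91.2, and Gsta4, which clears the lipid aldehyde hydroxynonenal, 26.2, 25.0 and 30.1. Gsta1 averaged 10.2, 13.3 and 14.6, with a difference of 0.48 ± 0.19 (SE) in CKD TRF (limma, adjusted p = 0.0535), which passed without Control 2, Control 4, CKD 1 or CKD TRF 1 (adjusted p = 0.034 to 0.0476). With equal sums Gsta1 passed at 0.55 in CKD and at 0.62 in CKD TRF (limma, adjusted p = 0.02 and 0.014). Gsto1, an omega enzyme with thiol transferase activity, averaged 33.1, 35.8 and 38.2 scaled reads. Gstp1 and Gstp2 averaged 105 and 106 in Control, 99.6 and 98.8 in CKD, and 104 and 102 in CKD TRF. Their proteins are 97.1% identical and their last 300 bases are the same, so how reads were divided between them is uncertain. Gsta1 and Gsta2 are 94.6% identical over their last 298 bases, and their division is uncertain as well.

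Among the sulfotransferases, 3 members of family 1 fell together and Sult5a1 rose from a low level. Sult1d1 (chr5:87554645-87569027, minus strand), which sulfonates catecholamines and phenols, measured 958, 1097, 937 and 1270 scaled reads in Control, 785, 736, 843 and 712 in CKD, and 876, 865, 813 and 718 in CKD TRF. Control lay above all diseased libraries. Sult1d1 fell by 0.46 ± 0.11 (SE) in CKD (limma, adjusted p = 0.0021) and by 0.37 ± 0.11 in CKD TRF (adjusted p = 0.0117), but with quantile normalization the difference in CKD was 0.02 (adjusted p = 0.872), on the other side of 0, and in CKD TRF -0.02 (adjusted p = 0.874). With equal sums it was -0.23 in both (adjusted p = 0.0824 and 0.107). Leaving out Control 4 ended the call of Sult1d1 in CKD TRF (adjusted p = 0.0517). Sult1c2 (chr17:53829637-53846339, minus strand), a phenol sulfotransferase of kidney and stomach, measured 82.8, 61.2, 68.3 and 67.2 in Control, 43.1, 34.7, 40.2 and 44.1 in CKD, and 48.9, 40.2, 30.8 and 54.1 in CKD TRF. Its Control libraries also stood clear of the rest. Sult1c2 fell by 0.77 ± 0.15 (SE) in CKD (limma, adjusted p = 0.00027) and by 0.69 ± 0.15 in CKD TRF (adjusted p = 0.000948), and both calls held under all 23 alternatives.

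Sult1b1 (chr5:87513339-87538195, minus strand), which acts on thyroid hormones and phenols, measured 14.1, 17.7, 16.2 and 16.7 in Control, 9.34, 12.1, 10.4 and 11.02 in CKD, and 12.03, 12.1, 10.4 and 10.1 in CKD TRF. The lowest Control library exceeded the highest diseased library. Sult1b1 fell by 0.55 ± 0.15 (SE) in CKD (limma, adjusted p = 0.00452) and by 0.50 ± 0.15 in CKD TRF (adjusted p = 0.011). With equal sums the adjusted p was 0.0626 and 0.0593. Sult5a1 (chr8:123140192-123158315, minus strand) measured 0.425 to 1.63 for Control, 1.51 to 4.02 for CKD and 1.33 to 1.58 for CKD TRF, so Control and CKD overlapped. Sult5a1 rose by 1.00 ± 0.26 (SE) in CKD (limma, adjusted p = 0.00336), and the difference was 0.43 ± 0.26 in CKD TRF (adjusted p = 0.202). Quantile normalization ended the call in CKD, at 0.60 (adjusted p = 0.0671). Sult1a1, the common phenol sulfotransferase, averaged 8.41, 7.85 and 6.71 and passed in no comparison.

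**Figure D4:**
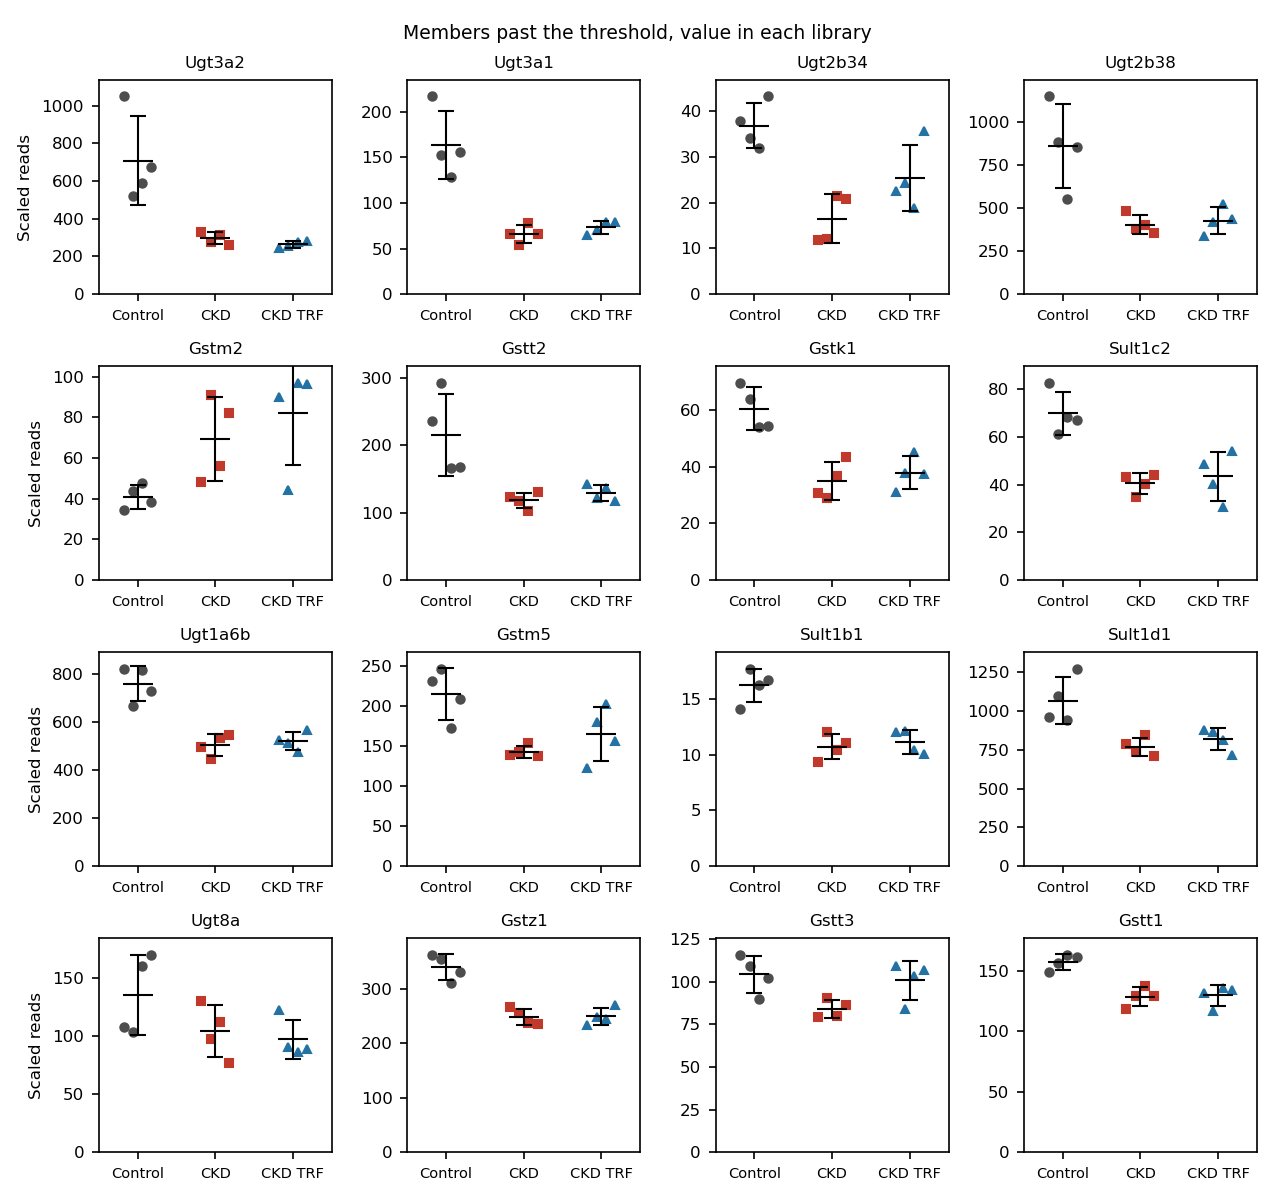
Scaled reads (y axis, from 0, own scale in each panel) of the 16 members past the threshold in at least 1 comparison and with a group mean of at least 10 scaled reads, by group on the x axis, with points for libraries and the mean and SD over 4 libraries in black. Gstm2 alone among them is higher in the diseased groups, at 48.2 to 91.0 in CKD against 34.2 to 47.6 in Control; the fall of Sult1d1 in CKD does not keep its sign under quantile normalization.

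The remaining 28 members did not pass the filter on low values and were not tested in the fit above. They were 12 Ugt, 2 Gst and 14 Sult genes, and the highest value among them in any library was 1.69 scaled reads. No read was found for 9 of them in any library, which allows at most 0.168 to 0.306 scaled reads per library, a limit for counting error only. These were Ugt1a9, Ugt2a1, Ugt2a2, Sult2a2, Sult2a4, Sult2a5, Sult2a6, Sult2a7 and Sult3a1. Sult2a enzymes act on hydroxysteroids, and the only family member above 1 in a library was Sult2a3, at 0.51 to 1.55 for Control, 0 to 0.655 for CKD and 0 to 0.477 for CKD TRF. Sult4a1, known from brain, was at 0 in all 4 Control libraries, at 0.324 to 1.22 in CKD and at 0.286 to 1.26 in CKD TRF. Ugt2b1 was at 0 in all Control libraries, at 0.0578 to 1.69 in CKD and at 0 to 1.01 in CKD TRF. The last 3 genes were named after their values were seen. With no filter, 18750 genes and 52 members were tested, 19 of these 28 among them, and 33.3% of all genes were called in CKD and 26.5% in CKD TRF. Of the 19, 3 were called in CKD and 2 in CKD TRF. Sult2a3, at 6 to 17 reads in Control and 0 to 10 in CKD, fell by 0.60 ± 0.20 in CKD and by 0.77 ± 0.20 in CKD TRF (SE; limma, adjusted p = 0.0362 and 0.0133). Sult4a1, at 5 to 21 reads in CKD and 4 to 19 in CKD TRF, rose by 0.80 ± 0.17 and 0.78 ± 0.17 (SE; limma, adjusted p = 0.00327 and 0.00509). Ugt2b1, at 1 to 26 reads in CKD, rose by 0.80 ± 0.28 in CKD (SE; limma, adjusted p = 0.0419), and the difference was 0.50 ± 0.28 in CKD TRF (adjusted p = 0.219). Against a group at 0 the fitted difference depends on the number added before the logarithm and is no bound.

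Members of like sequence were compared as log2 ratios of their levels within a library, which do not depend on how libraries are scaled. The 8 pairs with at least 70% protein identity and levels of at least 10 scaled reads gave 24 two-sided exact permutation tests, in which 4 against 4 libraries cannot go below p = 0.0286. None passed after Benjamini-Hochberg adjustment over the 24, the lowest adjusted value being 0.137. Ugt2b37 to Ugt2b38 was -0.94 ± 0.49 for Control, -0.12 ± 0.05 for CKD and -0.11 ± 0.38 for CKD TRF (SD, n = 4 each). CKD exceeded Control by 0.82 with no overlap (exact permutation p = 0.0286, adjusted p = 0.137). Gstm1 to Gstm2 was 3.15 ± 0.17, 2.44 ± 0.23 and 2.30 ± 0.39 in the 3 groups (SD, n = 4 each), lower than Control by 0.71 in CKD and by 0.85 in CKD TRF (exact permutation p = 0.0286 and adjusted p = 0.137 for each). Ugt3a1 to Ugt3a2 was -2.09 ± 0.22 for Control, -2.17 ± 0.19 for CKD and -1.85 ± 0.05 for CKD TRF (SD, n = 4 each). CKD TRF exceeded CKD by 0.32 with no overlap (exact permutation p = 0.0286, adjusted p = 0.137). Over their last bases Ugt2b37 and Ugt2b38 are 88.0% identical.

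**Figure D5:**
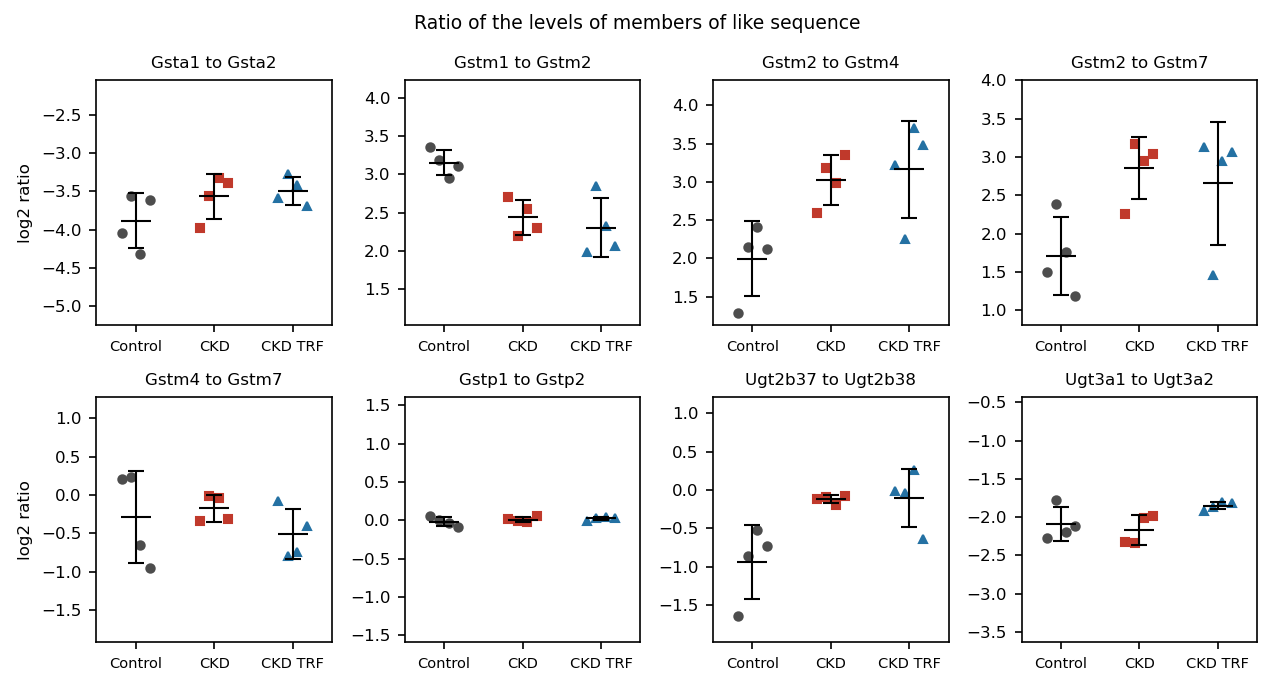
Log2 ratio of the levels of 2 members of like sequence (y axis, spanning the same range in each panel) in each library, by group on the x axis, with the mean and SD over 4 libraries in black. Ugt2b37 to Ugt2b38 lies between -1.64 and -0.53 in Control and between -0.20 and -0.08 in CKD, while Gstp1 to Gstp2 stays within 0.0829 of 0.

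Feeding was compared within disease as CKD TRF against CKD. No member passed the threshold, and 0% of all 13943 tested genes did (limma, lowest adjusted p = 0.705). At an unadjusted p below 0.05 there were 4 members and 890 genes, and limma voom on the recovered reads called 0 as well. The members were Ugt2b34 at 0.60 ± 0.20, Gsto2 at 0.55 ± 0.26, Gstt3 at 0.25 ± 0.11 and Sult5a1 at -0.57 ± 0.26 (SE; limma, adjusted p = 0.705, 0.782, 0.737 and 0.746). Of the 33 members 28 lay above 0, beside 6757 of all 13943 genes, with a median of 0.09 against -0.01 over all genes. With equal sums the medians were 0.006 for members and -0.08 for all genes. With quantile normalization they were 0.08 and -0.002. Gstm7 was the only member whose 2 groups did not overlap, with CKD at 7.25 to 10.1 scaled reads and CKD TRF at 10.2 to 16.0 (difference 0.38 ± 0.20, adjusted p = 0.789). Of all 13943 tested genes, 331 had CKD TRF wholly above CKD and 297 wholly below it.

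Against Control, CKD TRF kidneys showed 14 members lower and 1 higher, beside 37.5% of all tested genes called, 19.5% higher and 17.9% lower. With equal sums the split was 8 lower and 2 higher, beside 1430 lower and 3655 higher of all 13943 genes. With quantile normalization it was 8 lower and 3 higher, beside 2491 lower and 2324 higher of all genes. The median difference was -0.21 over members against 0.01 over all genes. By class 6 of 9 Ugt, 5 of 19 Gst and 3 of 5 Sult genes fell, and Gstm2 rose. Both comparisons with Control use the same 4 Control libraries. Called in both were 14 members, while Gstt3, Sult5a1, Ugt2a3 and Ugt2b5 were called in CKD alone and Ugt8a in CKD TRF alone. For these 5 the difference between the diseased groups did not pass the test (adjusted p = 0.737, 0.746, 0.789, 0.897 and 0.949). The share of all tested genes called in both comparisons was not counted, so the 14 are no result particular to the members.

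The genes that supply the 3 donors and act on the products were read from lists. Every list count below stands beside the 45.4% of all tested genes called in CKD, 23.6% higher and 21.8% lower. Of 10 tested genes of glutathione supply 7 fell and 2 rose in CKD, with a median of -0.42. Ggct, which breaks down gamma-glutamyl peptides, fell by 1.34 ± 0.14 and the synthetase Gss by 0.68 ± 0.10 (SE; limma, adjusted p = 2.43e-07 and 1.25e-05). Oplah, which opens the oxoproline that Ggct releases, rose by 0.54 ± 0.12, and the cystine carrier Slc7a11 rose by 0.66 ± 0.25 from 0.0849 to 0.720 scaled reads (adjusted p = 0.00138 and 0.0356). Of 9 genes that trim glutathione conjugates to mercapturates 7 fell and 1 rose, with a median of -0.63. The aminoacylases Acy1 and Acy3 fell by 1.08 ± 0.15 and 1.01 ± 0.14, the cysteine conjugate lyase Ccbl1 by 1.01 ± 0.11 and the brush border enzyme Ggt1 by 0.77 ± 0.10 (SE; adjusted p = 8.66e-06, 7.8e-06, 6.95e-07 and 6.05e-06).

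UDP-glucuronate and PAPS supply were more mixed. Of 13 genes of UDP-glucuronate supply and glucuronide cleavage 5 fell and 3 rose, with a median of -0.29. Ugdh, which makes UDP-glucuronate, differed by -0.01 ± 0.12 (SE; limma, adjusted p = 0.973). The glucose-6-phosphate carrier Slc37a4 fell by 1.00 ± 0.10 (adjusted p = 2.23e-07). Gulo rose by 1.21 ± 0.31, Pgm1 by 0.60 ± 0.22 and Hk1 by 0.49 ± 0.12 (adjusted p = 0.00368, 0.0348 and 0.00267). Of 15 genes of PAPS supply and sulfate cleavage 6 fell and 3 rose, with a median of -0.11. The sulfatase Arsg fell by 1.22 ± 0.17, the sulfate carrier Slc26a1 by 0.88 ± 0.10, Sumf1 by 0.57 ± 0.12 and Arsb by 0.50 ± 0.12 (adjusted p = 1.29e-05, 1.3e-06, 0.000578 and 0.00181). PAPS synthase Papss2 fell by 0.45 ± 0.09 (adjusted p = 0.000453).

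Conjugating enzymes of other families moved with the members. Of 23 tested 16 fell and 3 rose, with a median of -0.74. The microsomal transferase Mgst3 fell by 1.26 ± 0.18, the glycine acyltransferase-like gene Keg1 by 1.08 ± 0.15 and the acetyltransferase Nat2 by 0.99 ± 0.23 (SE; limma, adjusted p = 1.08e-05, 8.16e-06 and 0.00173). The nicotinamide methyltransferase Nnmt rose by 1.51 ± 0.22, from 0.540 to 3.34 scaled reads (adjusted p = 2e-05). Of 9 efflux pumps 4 rose and 2 fell, with a median of 0.60, while their summed level was 849.8 to 985.9 in Control and 718.8 to 806.8 in CKD. Abcc1 and Abcc3 rose by 1.04 ± 0.16 and 1.02 ± 0.29, Abcc4 by 0.77 ± 0.17 and Abcb1a by 0.70 ± 0.28 (adjusted p = 2.35e-05, 0.00723, 0.000873 and 0.0471). Abcg2 and Abcc2 fell by 0.37 ± 0.09 and 0.36 ± 0.11 (adjusted p = 0.00279 and 0.0138). Macrophage markers rose too, 9 of 9, with a summed level of 226 to 285 in Control and 842 to 1065 in CKD. Fibroblast markers, 6 of 6, rose from 217 to 264 in Control to 1150 to 1304 in CKD. The part of such cells in the lists was not tested.

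Transcription factors that act on conjugating enzymes were 7 higher and 3 lower of 20 in CKD. Over all tested genes 23.6% were higher and 21.8% lower. Hnf4a, which drives hepatic and proximal tubule genes, fell by 1.09 ± 0.10 from 511 to 239 scaled reads (SE; limma, adjusted p = 2.86e-08). The aryl hydrocarbon receptor Ahr rose by 0.87 ± 0.26, Maff by 0.94 ± 0.21, Cebpb by 0.92 ± 0.21 and Nfe2l2, which encodes NRF2, by 0.53 ± 0.11 (adjusted p = 0.0101, 0.00136, 0.00159 and 0.000559). Known NRF2 targets outside the transferases split into 6 higher and 8 lower of 23, with a median of -0.11. Cbr3 and Akr1b8 rose by 1.82 ± 0.22 and 1.66 ± 0.28, Osgin1 and Txn1 fell by 0.81 ± 0.16 and 0.72 ± 0.11 (adjusted p = 1.9e-06, 8.12e-05, 0.000322 and 2.11e-05), and Nqo1 differed by -0.03 ± 0.14 (adjusted p = 0.877). Of 4 tested AHR targets Cyp1b1 rose, by 1.21 ± 0.14 (adjusted p = 1.31e-06). Nfe2l2, Ugdh, Papss2, Nqo1, Abcg2 and Abcc2 were named after their values were seen. In CKD TRF against CKD none of these 9 lists held a call.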

How the data were processed

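Kidney RNA (500 ng of total RNA, Trizol) was made into QuantSeq 3' libraries, per the labels' protocols. Bowtie2, bedtools and mm10 are named in the submitters' processing notes, with no version or role. The strand setting and scaling are not given in the sources used here. The deposited values are log2(scaled reads + 1) for 23282 entries of 23238 symbols. Low values were 100% whole reads within 0.1 of a read, which gave each library's depth. One limma fit (3.58.1, R 4.3.3) with an intensity trend held all 12 libraries, over the upper 60% of genes by mean (13943), and p-values were adjusted by the Benjamini-Hochberg method over all of them, with a threshold of 0.05. Scripts were tested on simulated data. Members called in any comparison and with a group mean of at least 10 scaled reads are given by library and other members at that level by group means; of each pathway list, up to 4 called genes with the largest change in CKD are named. Gene positions and sequence identities came from GENCODE M21 and promoters from RefSeq. Members and lists were chosen with earlier results of these data known. Alternatives were other scalings, filters, added numbers and samples, limma voom, a replicate block and summed near-identical members.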

Additional observations from a re-analysis of the deposited data

Results flagged for a closer look

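Dixon's test at the 95% level was applied to each tested member in each group of 4, 99 groups in all, and marked 4; chance marks about 1 in 20. Gstm2 in CKD TRF 2 was 44.1 scaled reads, far below the 89.9 to 97.0 of the other CKD TRF libraries, and that library had 0.398 scaled reads of the 6 fat markers, against 66.5 to 131 in the others. Gstm6 in Control 3 was 1.28 against 2.45 to 2.65. Gstm7 in CKD 3 was 7.25 against 9.97 to 10.1. Ugt8a in CKD TRF 1 was 122 against 86.5 to 91.0.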

How the results depend on the processing

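In CKD against Control 18 members were called, 15 to 18 when each library was left out in turn, and 12 to 20 under the other 11 alternatives. The calls of 7 members (Gstk1, Gstt2, Sult1c2, Ugt2b34, Ugt2b38, Ugt3a1 and Ugt3a2) held in every alternative run, and those of the other 11 were lost in at least 1. The difference of Sult1d1 turned to 0.0221 with quantile normalization; the cause was not tested. In CKD TRF against Control 15 members were called, 12 to 16 when each library was left out. Of all 13943 genes 6333 were called in CKD, and 5388 to 6311 when each library was left out. In CKD TRF these were 5225, and 4396 to 5150. Leaving out the 5 libraries with over 20 scaled reads of fat markers was an alternative chosen after seeing the data. It left a single CKD TRF library, which is assumed to vary like the other groups. Fewer members were then called, and fewer of all genes. CKD TRF against CKD gave 0 throughout. With the replicate block the counts of members were 16, 0 and 16, beside 6131, 0 and 5033 of all genes. Libraries of the same number did not deviate together (correlations -0.179 to 0.110 over 12 pairs, beside -0.148 to 0.171 over 36 pairs of unlike number). A pairing of small effect or in few genes could not be seen this way, and what the number stands for is not stated. The planned rule for fat RNA left out no library and was not run as a fit. Summing the 8 Ugt1a entries, also chosen after seeing the data, changed no count. With 4 libraries a group and 3 reads worth 0.168 to 0.306 scaled reads, 28 members lay below the filter; without it 52 members were tested, and the 9 at 0 in every library could not be.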
